A study of Mus musculus with 30 samples.

Results

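Regulators of G protein signalling were examined in mouse CD4 T cells through 8 genes taken by symbol: Rgs1, Rgs2, Rgs3, Rgs10, Rgs14, Rgs16, Rgs18 and Rgs19. They are 8 of the 21 genes listed with an Rgs symbol, and 8 of 55363 named genes in the QuantSeq table and of 34010 in the RNA-seq tables. Of the 8, 7 passed the filter on low counts in QuantSeq, where Rgs18 had no count, and 8 passed it in RNA-seq. RGS proteins speed the hydrolysis of GTP on G protein alpha subunits and so shorten the signal that a receptor passes on after it binds its ligand. In lymphocytes the receptors concerned include those for chemokines and sphingosine 1-phosphate, which set where a cell stays within spleen or lymph node. Follicular helper T cells (TFH) rely on the chemokine receptor CXCR5 to reach B cell follicles, whereas T helper type 2 cells (TH2) make IL-4 and can work outside them.

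All cells came from spleens of C57BL/6 mice aged 8 weeks, and each library was made from 10 ng of total RNA. Lexogen QuantSeq, which reads the 3′ ends of transcripts, covered 22 libraries in 9 groups, and NEB Next Ultra RNA-seq covered 8 libraries in 5 groups. The QuantSeq groups all carried OTII, a T cell receptor transgene. Their TH2 cells were of genotype IL-4BacTg x OTII Tg, sorted as CD4+hCD2+ (n = 4). Their TFH cells were OTII Tg and were sorted as CD4+CD45.2+PD1+ through the gates CXCR5hi (n = 3), CXCR5int (n = 2) and CXCR5lo (n = 3). TFH2 is the labels' name for IL-4BacTg x OTII Tg cells sorted through the same 3 gates (n = 2 each). Bcl6KO cells (n = 2) were Bcl6f/fCd4cre x OTII Tg, with Cre driven by Cd4, and were sorted as CD4+hCD2+. Il4KO cells (n = 2) were Il4-/- x OTII Tg and were sorted as CD4+. In RNA-seq, naive wild type cells were sorted as CD4+CD62L+CD44-CD25- (n = 2), TH2 cells were IL-4BacTg, CD4+hCD2+ (n = 2), and TFH cells were OTII Tg, CXCR5hi PD1+ (n = 2). The TH2 comparisons therefore differ in gate, except that with Bcl6KO, and mostly in genotype, beside cell type. The labels name no animals, pools, replicate numbers or batches. Libraries of a group may be technical repeats, and p-values rest on spread among libraries, which may not be spread among animals. All groups of an assay share 1 estimate of spread per gene, which edgeR moderates across genes. The median prior degrees of freedom were 117.7 beside 13 residual ones in QuantSeq, and 7.74 beside 3 in RNA-seq. For a typical gene, p-values therefore rest mostly on spread borrowed from other genes.

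QuantSeq libraries held 1834612 to 4442404 counts and RNA-seq libraries 36048137 to 107398014. Levels below are counts per 10 to the power 6 counts used (CPM). In QuantSeq these are the counts of named genes. In RNA-seq they are the counts of the highest-count transcript of each named gene, 12.56 to 35.63 times 10 to the power 6 per library. They are not scaled by transcript length, so they are compared between libraries and not between genes. All 8 CD4 T cell markers were detected in all 30 libraries. The other 2 RNA-seq libraries, each alone in its group, went against their labels: Cxcr5 stood at 135 CPM in the library labelled TH2 (IL-4BacTg x OTII Tg) and at 1.11 CPM in the library labelled TFH2 CXCR5hi, against 439 and 442 CPM in the TFH libraries. These 2 stand on neither side of a comparison, but the filter, the scaling, the estimate of spread and the choice of transcript used all 8 RNA-seq libraries. Fitted without them, edgeR called 7, 7 and 6 regulators for TH2 against naive, TFH against naive and TFH against TH2, as many as with them. The Y-linked transcript Ddx3y and the X-linked Xist also separated groups: in QuantSeq all 8 TFH libraries carried Xist and all 6 TFH2 libraries Ddx3y, while TH2 libraries 1 and 2 carried Xist and 3 and 4 Ddx3y. RNA-seq TFH libraries carried Ddx3y and naive and TH2 libraries Xist. The sex of the cells and the group therefore cannot be told apart between TFH2 and TFH, or between RNA-seq TFH and the other RNA-seq groups.

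The promoters of Rgs2, Rgs16 and Rgs10 are shown because, for these 3 genes, every TFH CXCR5hi library stood above every TH2 library in both assays, a choice made after the levels were seen. Each is the 250 bases before the RefSeq start site on GRCm38.p6, printed 5′ to 3′ on the gene's own strand. The windows are chr1:144004150-144004399 (minus strand) for Rgs2, chr1:153740103-153740352 (plus strand) for Rgs16 and chr7:128418173-128418422 (minus strand) for Rgs10. Capitals mark the cAMP response element core TGACG and the GC box GGGCGG, each searched on both strands.
Rgs2: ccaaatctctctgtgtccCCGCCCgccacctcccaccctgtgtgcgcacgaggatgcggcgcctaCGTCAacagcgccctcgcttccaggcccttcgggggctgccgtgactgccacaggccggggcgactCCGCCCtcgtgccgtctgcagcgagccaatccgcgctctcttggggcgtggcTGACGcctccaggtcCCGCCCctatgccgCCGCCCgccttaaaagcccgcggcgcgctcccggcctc
Rgs16: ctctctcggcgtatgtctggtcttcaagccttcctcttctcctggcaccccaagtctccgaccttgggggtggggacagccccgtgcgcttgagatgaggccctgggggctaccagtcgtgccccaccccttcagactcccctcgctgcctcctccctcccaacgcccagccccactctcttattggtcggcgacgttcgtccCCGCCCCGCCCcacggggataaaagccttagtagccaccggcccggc
Rgs10: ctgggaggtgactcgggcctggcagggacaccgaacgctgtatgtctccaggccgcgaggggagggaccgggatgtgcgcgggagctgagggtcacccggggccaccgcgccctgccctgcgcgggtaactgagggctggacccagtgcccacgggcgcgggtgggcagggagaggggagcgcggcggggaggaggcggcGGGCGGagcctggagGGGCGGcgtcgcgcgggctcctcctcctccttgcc
The Rgs2 window held the TGACG core at -185 and -67 and GC boxes at -232, -119, -52 and -38, counted from the start site to the first base of the match. The Rgs16 window held GC boxes at -47 and -42, which overlap by 1 base, and the Rgs10 window held them at -50 and -35. Of 32851 RefSeq promoters of the same length, 17.8% held TGACG and 32.7% held GGGCGG. GC content was 72.4% for Rgs2, 66.4% for Rgs16 and 76.4% for Rgs10, against a median of 52.4% over those promoters. The TATA box letters TATAAA, held by 12.4% of them, were not in these 3 windows. Rgs3 also had higher means in TFH CXCR5hi than in TH2 cells in both assays, with overlapping QuantSeq libraries. Its 2 RefSeq windows, which are not printed, had GC contents of 48.4% and 56.8% and held TATAAA at -100 and -177. The window at 56.8% also held a GC box at -39. Rgs19, called between TFH CXCR5hi and TH2 in neither assay, had windows of 64.8%, 74.8% and 54.4% GC, also not printed. The first held a GC box at -57 and the second at -224 and -94, and none held TATAAA. A match describes letters in the window and is not a measured binding site.

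Rgs2, a small RGS protein with a preference for the Gq alpha subunit, had the smallest p among the regulators in QuantSeq. Its level in the 4 TH2 libraries was 92.8, 41.8, 77.9 and 58.9 CPM. In TFH cells it was 630.4, 564 and 732 CPM in the CXCR5hi gate, 761 and 785 CPM in CXCR5int, and 1195, 1055 and 819.8 CPM in CXCR5lo. In TFH2 cells it was 905 and 1281 CPM in CXCR5hi, 844 and 1179.6 CPM in CXCR5int, and 1120.3 and 1124 CPM in CXCR5lo. The 14 TFH and TFH2 libraries lay between 564 and 1281 CPM, and the 8 TH2, Bcl6KO and Il4KO libraries between 41.8 and 100.2 CPM, with no overlap. The mean was 642 ± 84.7 CPM (SD, n = 3) in TFH CXCR5hi cells and 67.9 ± 22.2 CPM (SD, n = 4) in TH2 cells, a ratio of 9.46. The log2 ratio was 3.23 ± 0.26 (SE), with an adjusted p of 5.8e-20 in edgeR's quasi-likelihood test with Benjamini-Hochberg adjustment over 14380 genes. Against the same 4 TH2 libraries the log2 ratio was 3.91 ± 0.27 for TFH CXCR5lo, 3.97 ± 0.28 for TFH2 CXCR5hi and 3.96 ± 0.28 for TFH2 CXCR5lo, and Rgs2 passed the test in each. Among libraries with Xist, the mean was 818 CPM in TFH and 67.3 CPM in TH2 (12.1-fold), and among libraries with Ddx3y it was 1076 CPM in TFH2 and 68.4 CPM in TH2 (15.7-fold). In bulk libraries, more cells that hold a transcript and more transcript per cell cannot be told apart, for Rgs2 or for any other gene here.

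Rgs1, which dampens chemokine receptor signalling in lymphocytes, had the opposite order. Its level in TH2 libraries was 825, 656, 427 and 469 CPM. In TFH cells it was 125, 109 and 122 CPM in CXCR5hi, 103 and 159.6 CPM in CXCR5int, and 230.1, 149.7 and 155 CPM in CXCR5lo. All 8 TFH libraries lay below all 4 TH2 libraries. Mean Rgs1 was 119 ± 8.91 CPM (SD, n = 3) in TFH CXCR5hi cells and 594 ± 183 CPM (SD, n = 4) in TH2 cells, a log2 ratio of -2.33 ± 0.30 (edgeR quasi-likelihood, Benjamini-Hochberg adjusted p = 1.46e-09). In TFH CXCR5lo cells the mean was 178 ± 45.1 CPM and the log2 ratio to TH2 was -1.74 ± 0.29 (adjusted p = 7.71e-06 in the same edgeR fit). TFH2 cells held more Rgs1 than TFH cells, with 248 and 359.8 CPM in CXCR5hi, 366 and 259 CPM in CXCR5int, and 542 and 549 CPM in CXCR5lo. The lowest TFH2 library stood above the highest TFH library, and the TFH2 CXCR5lo libraries lay within the TH2 range. Against TH2, the log2 ratio of Rgs1 was -1.0 ± 0.33 in TFH2 CXCR5hi (adjusted p = 0.0812) and -0.21 ± 0.32 in TFH2 CXCR5lo (adjusted p = 0.914), so neither passed the edgeR test. Both TFH2 CXCR5hi libraries lay below all 4 TH2 libraries, and DESeq2 called that difference (adjusted p = 0.0264). By sex-linked transcript, mean Rgs1 was 144 CPM in TFH and 740.1 CPM in TH2 libraries with Xist (5.13-fold lower in TFH). With Ddx3y it was 387 CPM in TFH2 and 448 CPM in TH2 libraries (1.16-fold lower in TFH2). Rgs1 thus also differed within TH2 by the sex-linked transcript carried, with 2 libraries each.

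Between TFH2 and TFH over the 3 gates, Rgs1 rose with a log2 ratio of 1.36 ± 0.20 (edgeR quasi-likelihood, adjusted p = 1.52e-06). The means were 387 ± 132 CPM (SD, n = 6) and 144 ± 40.6 CPM (SD, n = 8), a ratio of 2.68. Rgs1 was 1 of 7 tested regulators that passed, against 0.327% of all genes called higher and 0.32% called lower. Of the 93 genes called, 50.5% were higher, and 62.2% of 90 were with RLE in place of TMM factors. Rgs2 averaged 1076 ± 167 CPM in TFH2 and 818 ± 210.4 CPM in TFH, and its log2 ratio of 0.38 ± 0.18 did not pass (adjusted p = 0.466). Rgs10 averaged 392 and 397 CPM. The comparison sets libraries with Ddx3y against libraries with Xist, as given above. Markers of other cells moved with it as well. The summed level of 12 myeloid genes was 73 to 157 CPM in TFH and 224 to 1394 CPM in TFH2 libraries, and that of 6 erythroid genes was 40 to 343 CPM in TFH and 424 to 1636 CPM in TFH2 libraries. The B cell gene Igkc was called higher in TFH2 (log2 ratio 2.41 ± 0.40), as was Hbb-bs (2.69 ± 0.41). The part of these cells in the Rgs1 result was not tested.

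**Figure D1:**
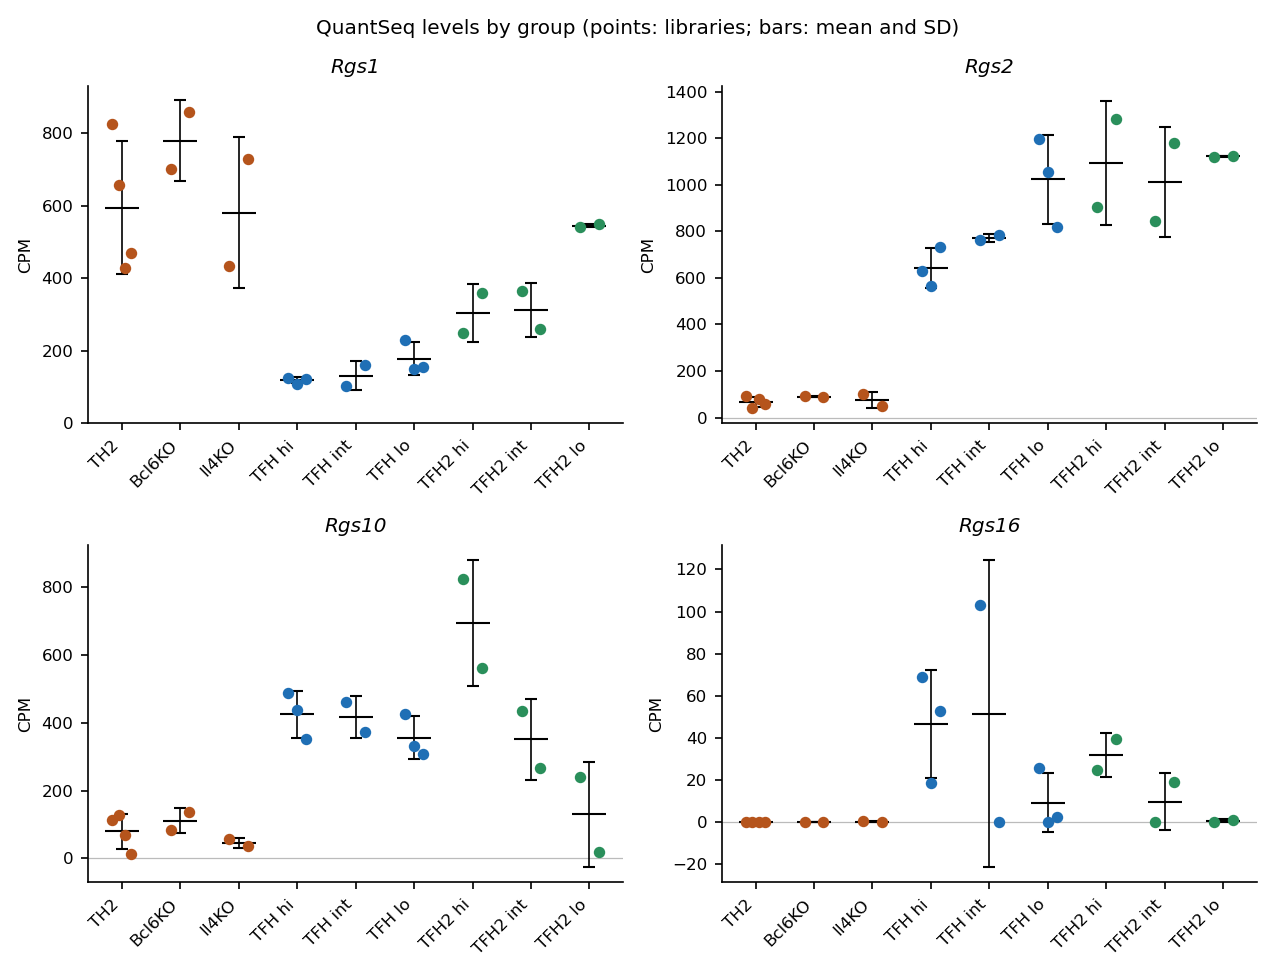
Levels of Rgs1, Rgs2, Rgs10 and Rgs16 in the 22 QuantSeq libraries by group, in CPM; points are libraries and bars the mean with its SD. Rgs2 is at 41.8 to 100.2 CPM in TH2, Bcl6KO and Il4KO libraries and at 564 to 1281 CPM in TFH and TFH2 libraries, and Rgs1 is lowest in TFH libraries, at 103 to 230.1 CPM.

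The count ratio of Rgs2 to Rgs1 within a library needs no scaling between libraries, and it was looked at after the levels were seen. It was 0.064 to 0.183 (median 0.12) in TH2, 0.102 and 0.131 in Bcl6KO and 0.071 and 0.231 in Il4KO libraries. It was 4.92 to 7.37 (median 5.245) in TFH and 2.05 to 4.56 (median 2.935) in TFH2 libraries. All 14 QuantSeq libraries sorted through CXCR5 gates lay above 1, and the 8 other QuantSeq libraries lay below it. In RNA-seq, a ratio above 1 was not limited to CXCR5-gated cells: it was 4.19 and 3.87 in naive, 5.61 and 5.29 in TFH and 0.055 and 0.061 in TH2 libraries, and 0.186 in the library labelled TFH2 CXCR5hi and 0.909 in the one labelled TH2 (IL-4BacTg x OTII Tg). The 2 genes stand 238.1 kb apart on chromosome 1, both on the minus strand (Rgs2 at 143999338 to 144004161, Rgs1 at 144242296 to 144249242, GENCODE M21 on GRCm38). The coding gene between them, Rgs13, had 0 counts in both assays. Rgs18 lies further along the same stretch, 748.5 kb from Rgs2, with 3 coding genes between, all of them Rgs genes.

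**Figure D2:**
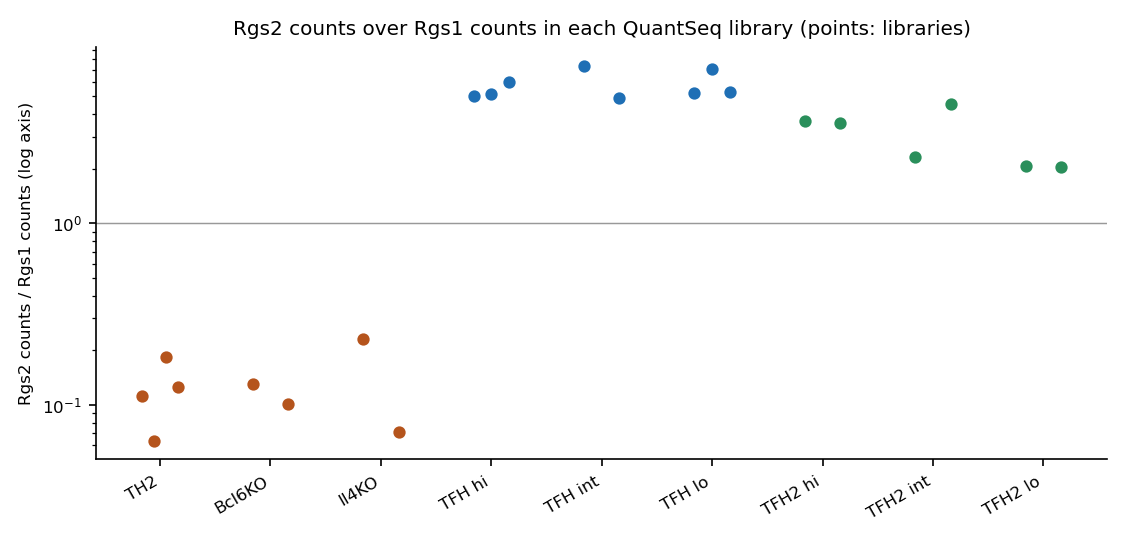
Ratio of Rgs2 counts to Rgs1 counts in each QuantSeq library, by group, on a log axis with a line at 1. TH2, Bcl6KO and Il4KO libraries lie at 0.064 to 0.231, TFH2 libraries at 2.05 to 4.56 and TFH libraries at 4.92 to 7.37.

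Rgs16, which acts on Gi and Gq alpha subunits and is induced by activation in T cells, was not detected in the 4 TH2 libraries (0 counts in each, where 3 counts would be 0.995 to 1.62 CPM). It was at 68.7, 18.3 and 52.8 CPM in TFH CXCR5hi cells, from 201, 54 and 213 counts. In the CXCR5int gate it was at 103 and 0 CPM, and in CXCR5lo at 25.5, 0 and 2.28 CPM. TFH2 libraries held 24.6 and 39.2 CPM in CXCR5hi, 0 and 19.1 CPM in CXCR5int, and 0 and 1.09 CPM in CXCR5lo. All 5 CXCR5hi libraries held Rgs16, while libraries of 1 gate disagreed in the int and lo gates. With 3 counts put in each empty TH2 library, Rgs16 was at least 38.8-fold higher in TFH CXCR5hi and at least 26.6-fold higher in TFH2 CXCR5hi (edgeR quasi-likelihood, adjusted p = 0.0052 and 0.0126). In TFH CXCR5lo it was at least 7.71-fold higher, with an adjusted p of 0.0542 in the same edgeR fit, which is not a call. Among the 4 knockout libraries, 1 Il4KO library held 1 count and the rest held none. Rgs16 overlaps the antisense gene Gm28513 over 1917 bp, and the sources do not state whether counting used strand.

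Rgs10, a small RGS protein that acts on Gi alpha subunits, was at 113, 128, 67.6 and 11.9 CPM in TH2 libraries. In TFH cells it was at 488, 437 and 351 CPM in CXCR5hi, 461 and 374 CPM in CXCR5int, and 427, 333 and 309 CPM in CXCR5lo. All TFH libraries lay above all TH2 libraries. Even so, the log2 ratio of TFH CXCR5hi to TH2 was 2.39 ± 0.72 and did not pass (edgeR quasi-likelihood, adjusted p = 0.105), with the TH2 library at 11.9 CPM resting on 22 counts. DESeq2 called the same difference (adjusted p = 0.00186), and edgeR did so when fitted on the compared groups alone (adjusted p = 0.0313). TFH2 libraries held 825 and 563 CPM in CXCR5hi, 436 and 267 CPM in CXCR5int, and 239 and 20.2 CPM in CXCR5lo, the last from 37 counts. The log2 ratio of TFH2 CXCR5hi to TH2 was 3.08 ± 0.78 (edgeR adjusted p = 0.0512, DESeq2 adjusted p = 0.000224). By sex-linked transcript, mean Rgs10 was 397 CPM in TFH and 120.5 CPM in TH2 libraries with Xist (3.3-fold). With Ddx3y it was 392 CPM in TFH2 and 39.8 CPM in TH2 libraries (9.85-fold), so TH2 levels differed by the transcript carried. Rgs10 shares 3374 bp of its locus with Gm15503 on the same strand, and the sources do not state how shared bases were counted.

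Rgs3, Rgs14 and Rgs19 did not pass the test in the QuantSeq comparisons with TH2. Rgs3, an RGS protein that also occurs in forms with long N-terminal parts, was at 4.68 to 40 CPM in TH2 libraries, 8.46 to 43 CPM in TFH and 10.9 to 74.4 CPM in TFH2 libraries. Its log2 ratio of TFH CXCR5hi to TH2 was 0.91 ± 1.11. Rgs14, a scaffold that joins an RGS domain to Ras-binding and GoLoco parts, was at 18.4 to 25.9 CPM in TH2, 3.4 to 58.8 CPM in TFH and 8.09 to 43.6 CPM in TFH2 libraries, with a log2 ratio of 0.53 ± 1.1. Rgs19, known as GAIP for its binding of Gi alpha subunits, was at 2.7 to 65.9 CPM in TH2, 0 to 62.7 CPM in TFH and 0 to 88.7 CPM in TFH2 libraries, with a log2 ratio of 0.21 ± 1.17. The ranges overlapped for all 3 genes. The standard errors were above 1 on the log2 scale, so these values do not show that the levels were alike. Rgs18, best known from platelets, had 0 counts in all 22 libraries, where 3 counts would be 0.675 to 1.64 CPM per library. Of 7 platelet markers, Ppbp, Treml1 and Gp6 were also at 0 in all 22, while Pf4 was at 0 in 16 (up to 33.1 CPM), Itga2b in 15 (up to 23.0 CPM), Gp1ba in 14 (up to 3.24 CPM) and Gp9 in 21 (up to 5.86 CPM).

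Counted over the 7 tested regulators, 2 were higher and 1 lower in TFH CXCR5hi cells than in TH2 cells, against 2.05% and 1.46% of the 14380 genes tested. In TFH CXCR5lo, 1 was higher and 1 lower, against 1.54% and 0.682% of all genes. In TFH2 CXCR5hi, 2 were higher, against 1.7%, and none lower, against 1.24%. In TFH2 CXCR5lo, Rgs2 alone was higher, against 1.06%, and none lower, against 0.688%. Rgs10 in TFH2 CXCR5lo was called lower than in TH2 without the library at 239 CPM (log2 ratio -2.13) and higher without the one at 20.2 CPM (1.5). DESeq2 called 4 regulators in TFH CXCR5lo and 4 in TFH2 CXCR5hi. These 4 comparisons share the TH2 libraries and so are not independent of each other. The median log2 ratio of the 7 was 0.91 for TFH CXCR5hi and 1.46 for TFH2 CXCR5hi, beside 0 over all genes in both. Other markers moved with the same contrast. The summed level of 12 myeloid markers was 0 to 6.96 CPM in TH2 (9 to 12 of them at 0), 86.1 to 152 CPM in TFH CXCR5hi (6 to 7 at 0) and 645 to 1394 CPM in TFH2 CXCR5hi (2 to 3 at 0). The summed level of 12 B cell markers was 60.5 to 147 CPM in TH2 (9 to 11 at 0), 269 to 291 CPM in TFH CXCR5hi (7 to 8 at 0) and 566 to 947 CPM in TFH2 CXCR5hi (6 to 7 at 0), with Ms4a1, Blk and Mzb1 at 0 in all 22 libraries. The summed level of 6 erythroid markers was 0 to 39.4 CPM in TH2 (2 to 6 at 0), 85.4 to 141 CPM in TFH CXCR5hi (2 at 0) and 1177 to 1636 CPM in TFH2 CXCR5hi (2 at 0). In the other direction, 6 CD8 and NK cell markers summed to 912, 672, 80.9 and 108 CPM in TH2 libraries 1 to 4, whose Rgs1 was 825, 656, 427 and 469 CPM, and to 0 to 4.08 CPM in TFH CXCR5hi. In TH2 libraries 4 to 5 of these 6 genes were at 0, Cd8a and Ncr1 were at 0 in all 22 libraries, and Gzma alone was called lower in TFH CXCR5hi. A list of 8 immediate early and activation genes, put together after levels were seen, summed to 2127 to 3277 CPM in TH2 and 7586 to 8985 CPM in TFH CXCR5hi. In RNA-seq it summed to 6518 to 6676 CPM in naive libraries, above the 3702 to 4403 CPM of TH2 libraries. TFH libraries there held 11355 to 11557 CPM. The part of any of these in the Rgs1, Rgs2, Rgs16 and Rgs10 levels was not tested.

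Between CXCR5 gates, none of the 7 regulators passed the test. Within TFH cells, 0 of 7 were called by edgeR, beside 0.0278% of all genes higher in CXCR5hi and 0.111% lower; DESeq2 also called 0, and 1 had an unadjusted p under 0.05. That gene was Rgs2, with 642 ± 84.7 CPM in CXCR5hi, 773 ± 16.6 CPM in CXCR5int and 1023 ± 189.6 CPM in CXCR5lo (SD, n = 3, 2 and 3). The 3 CXCR5hi libraries all lay below the 3 CXCR5lo libraries, with a log2 ratio of -0.68 ± 0.27 (edgeR adjusted p = 0.641). Within TFH2 cells, 0 of 7 were called by edgeR, beside 0.0487% of all genes higher and 0.104% lower; DESeq2 also called 0, and 3 had an unadjusted p under 0.05. They were Rgs10 (log2 ratio 2.44 ± 0.97), Rgs1 (-0.80 ± 0.37) and Rgs16. The difference between the 2 gate contrasts was tested as well, and 0 of 7 were called, beside 0.0139% of all genes higher and 0.0% lower, with 0 at an unadjusted p under 0.05 and 0 called by DESeq2. For Rgs10 the TFH2 gate contrast rests on 1 library: without the CXCR5lo library at 239 CPM, edgeR called it with a log2 ratio of CXCR5hi to CXCR5lo of 5.19, and the difference between the gate contrasts was called at 4.96.

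The targeted genes did not separate the knockouts from TH2 cells. Bcl6 was at 6.73 and 26.4 CPM in Bcl6KO and 0.39, 13.2, 1.99 and 5.95 CPM in TH2 libraries, and a 3′ tag outside the deleted part checks nothing. Il4 had 0 and 3 counts in Il4KO and 0, 0, 40 and 0 counts in TH2 libraries. No regulator passed the threshold between the libraries labelled as a knockout and TH2 cells. Rgs1 was at 701 and 858 CPM in Bcl6KO cells and 434 and 728 CPM in Il4KO cells, close to or within the TH2 range of 427 to 825 CPM. Rgs2 was at 91.6 and 87.5 CPM in Bcl6KO and 100.2 and 51.6 CPM in Il4KO cells, around the TH2 range of 41.8 to 92.8 CPM. Rgs10 was at 84.9 and 138 CPM and at 57.1 and 35.6 CPM. For Bcl6KO against TH2, 0 of 7 were called by edgeR, 0 by DESeq2 and 0 at an unadjusted p under 0.05, beside 0.0139% of all genes higher and 0.00695% lower. The log2 ratios were 0.36 ± 0.31 for Rgs1 and 0.36 ± 0.28 for Rgs2. For Il4KO against TH2, 0 of 7 were called by edgeR, 0 by DESeq2 and 0 at an unadjusted p under 0.05, beside 0.00695% higher and 0.0626% lower. There the log2 ratios were 0.04 ± 0.31 for Rgs1 and 0.24 ± 0.28 for Rgs2. With 2 libraries a group, these intervals do not show that the levels were alike.

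RNA-seq added naive cells as a reference. Rgs1 was at 19.3 and 19.8 CPM in naive libraries, 61.6 and 63.3 CPM in TFH CXCR5hi libraries and 1947 and 1475 CPM in TH2 libraries. TH2 cells thus held 87.5-fold more than naive cells and 27.4-fold more than TFH cells (ratios of means). The log2 ratios were 6.47 ± 0.16 for TH2 to naive, 1.65 ± 0.14 for TFH to naive and -4.82 ± 0.15 for TFH to TH2, and each passed the test (edgeR quasi-likelihood, adjusted p = 2.51e-10, 4.42e-06 and 1.1e-09). Rgs16 was at 2.11 and 2.3 CPM in naive, 0.581 and 0.481 CPM in TH2 and 66.6 and 63.9 CPM in TFH libraries. It fell from naive to TH2 (log2 ratio -2.04 ± 0.20) and rose from naive to TFH (4.86 ± 0.11), and TFH cells held 123-fold more than TH2 cells (adjusted p = 1.75e-11 in the same edgeR fit). No groups overlapped for either gene.

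Among the naive, TH2 and TFH groups, Rgs2, Rgs3 and Rgs10 were highest in TFH cells. Rgs2 was at 80.8 and 76.9 CPM in naive, 107 and 90 CPM in TH2 and 346 and 335 CPM in TFH libraries, a log2 ratio of TFH to TH2 of 1.75 ± 0.10 (edgeR adjusted p = 3.65e-08). Rgs3 was at 70.1 and 67.7 CPM in naive, 50.8 and 60.9 CPM in TH2 and 239 and 237 CPM in TFH libraries, a log2 ratio of 2.06 ± 0.08 (edgeR adjusted p = 2.51e-09). Rgs10 was at 86 and 85.4 CPM in naive, 54.7 and 51.4 CPM in TH2 and 297 and 299.9 CPM in TFH libraries, a log2 ratio of 2.45 ± 0.08 (edgeR adjusted p = 2.6e-10). For all 3 genes both TFH libraries stood above both naive and both TH2 (IL-4BacTg) libraries. The single library labelled TH2 (IL-4BacTg x OTII Tg) held 389.7 CPM of Rgs2, above both TFH libraries. Rgs2 rose from naive to TH2 (log2 ratio 0.34 ± 0.10), whereas Rgs3 (-0.29 ± 0.08) and Rgs10 (-0.68 ± 0.08) fell. The Rgs2 call was lost without naive replicate 2 (edgeR adjusted p = 0.0919) and the Rgs3 call without naive replicate 1 (0.0853).

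Among the same groups, Rgs14 and Rgs19 were highest in naive cells. Rgs14 was at 188 and 181 CPM in naive, 84.1 and 103 CPM in TH2 and 117 and 115 CPM in TFH libraries. It fell from naive to TH2 (log2 ratio -0.96 ± 0.09) and to TFH (-0.69 ± 0.09), and was higher in TFH than in TH2 (0.28 ± 0.09, edgeR quasi-likelihood, adjusted p = 0.0169). The last call did not hold without TFH replicate 1 (adjusted p = 0.164) or 2 (adjusted p = 0.0673). Rgs19 was at 73.3 and 75.2 CPM in naive, 52.3 and 62.4 CPM in TH2 and 55.8 and 55.6 CPM in TFH libraries, and it fell from naive to TH2 (-0.36 ± 0.08) and to TFH (-0.44 ± 0.08). TFH and TH2 overlapped for Rgs19, with a log2 ratio of -0.08 ± 0.08. Rgs18 had 0 and 1 counts in naive, 3 and 1 in TH2 and 0 and 0 in TFH libraries, so no fold is given. It had 9 counts in the single library labelled TH2 (IL-4BacTg x OTII Tg), which the filter on low counts also used.

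**Figure D3:**
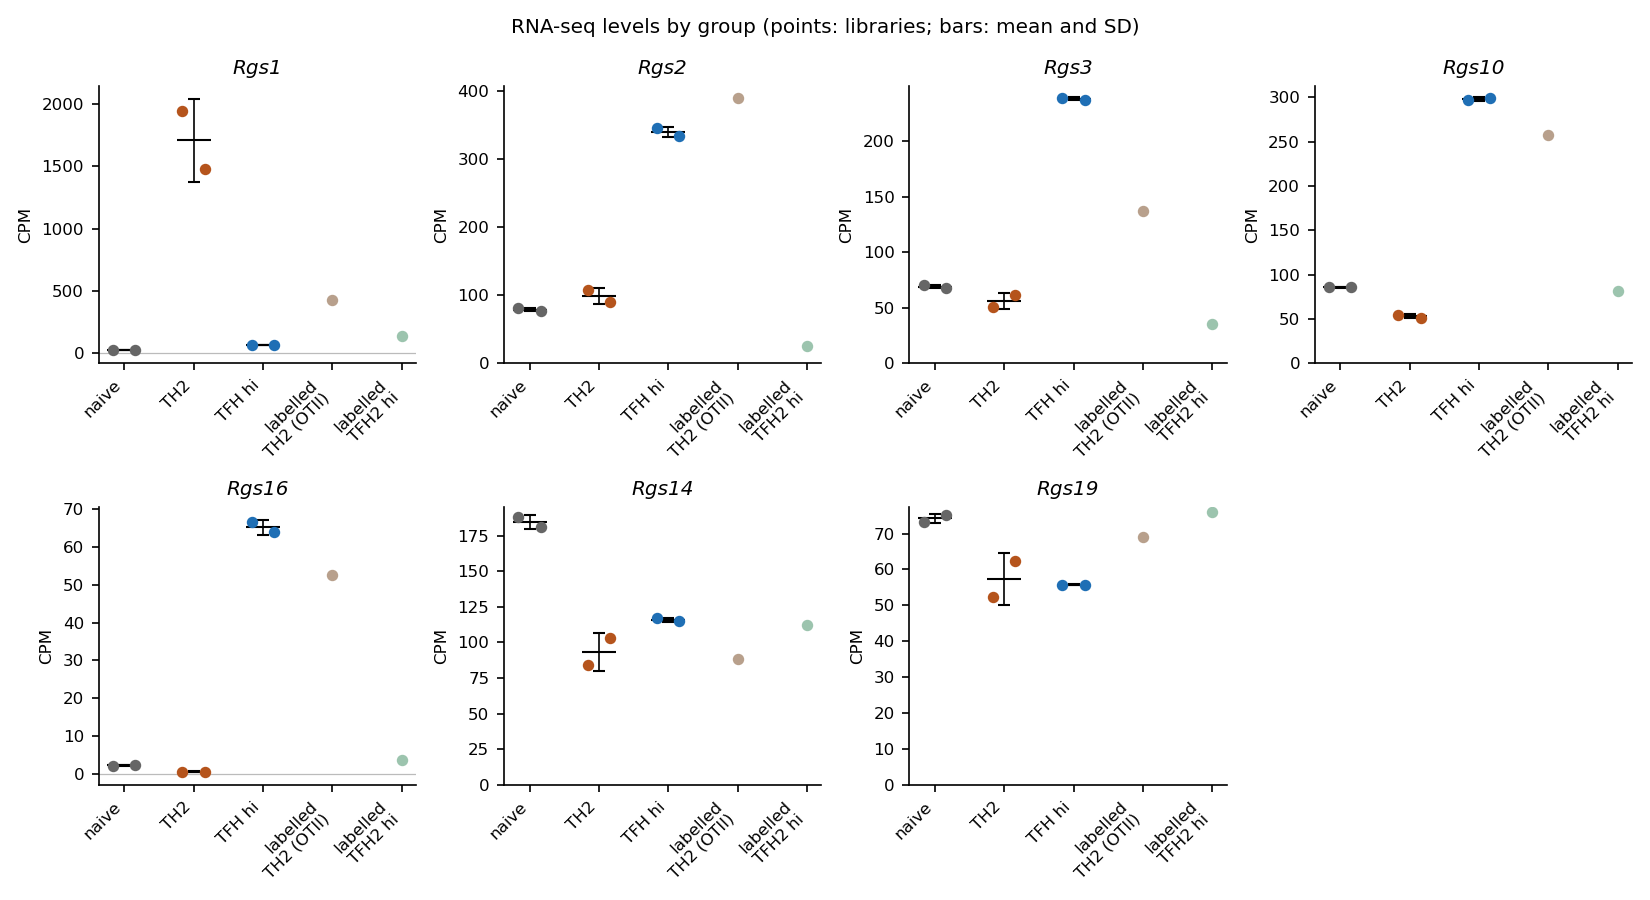
Levels of 7 regulators in the 8 RNA-seq libraries by group, in CPM; each point is a library, and the groups labelled TH2 (IL-4BacTg x OTII Tg) and TFH2 hold 1 library each. Rgs1 is highest in TH2 libraries (1475 and 1947 CPM), and Rgs14 is highest in naive libraries (181 and 188 CPM). Rgs2, Rgs3, Rgs10 and Rgs16 are higher in TFH than in naive and TH2 (IL-4BacTg) libraries. The single library labelled TH2 (IL-4BacTg x OTII Tg) lies above the TFH libraries for Rgs2, at 389.7 CPM.

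RNA-seq replicates were close, with a biological coefficient of variation of 0.0879 against 1.26 in QuantSeq, and a large share of all genes was called. From naive to TH2, 2 of the 8 regulators rose and 5 fell, against 33.9% and 31.9% of 17000 genes. From naive to TFH, 5 rose and 2 fell, against 29.6% and 27.6%. Between TFH and TH2, 5 were higher and 1 lower in TFH, against 30.8% and 30.9%. The median log2 ratio of TFH to TH2 over the 8 was 1.01, beside -0.01 over all genes. The 3 regulators called between TFH CXCR5hi and TH2 in both assays were Rgs1, Rgs2 and Rgs16, each with the same direction in both. The sizes differed: Rgs2 had a log2 ratio of 3.23 in QuantSeq and 1.75 in RNA-seq, while Rgs1 had -2.33 and -4.82. The TH2 cells of the RNA-seq set did not carry OTII, and those of QuantSeq did. Of 6 CD8 and NK cell markers, the cytotoxic granule gene Gzma followed the order of Rgs1, averaging 1094 CPM in TH2, 0.278 CPM in TFH and 0.159 CPM in naive cells. From naive to TH2 Gzma was the 1 marker of the list that rose, while 3 fell (Klrd1, Klrb1c and Cd8b1). The summed level of 5 basophil and mast cell markers was also highest in TH2, at 47.1 to 58.8 CPM with 3 at 0. It was 0.472 to 0.561 CPM in naive and 0.0521 to 0.109 CPM in TFH libraries. Of 4 tested, 2 rose from naive to TH2 and none fell, against 33.9% and 31.9% of all genes. The high sums are nearly all Cpa3, which reached 58.5 CPM in RNA-seq. Mcpt8, Prss34, Fcer1a and Ms4a2 reached at most 1.99, 1.08, 1.83 and 0.159 CPM in any RNA-seq library. In QuantSeq the sums were 0 to 15.5 CPM in TH2 and 0.34 to 16.7 CPM in TFH CXCR5hi. The part of these genes in the Rgs1 level was not tested.

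**Figure D4:**
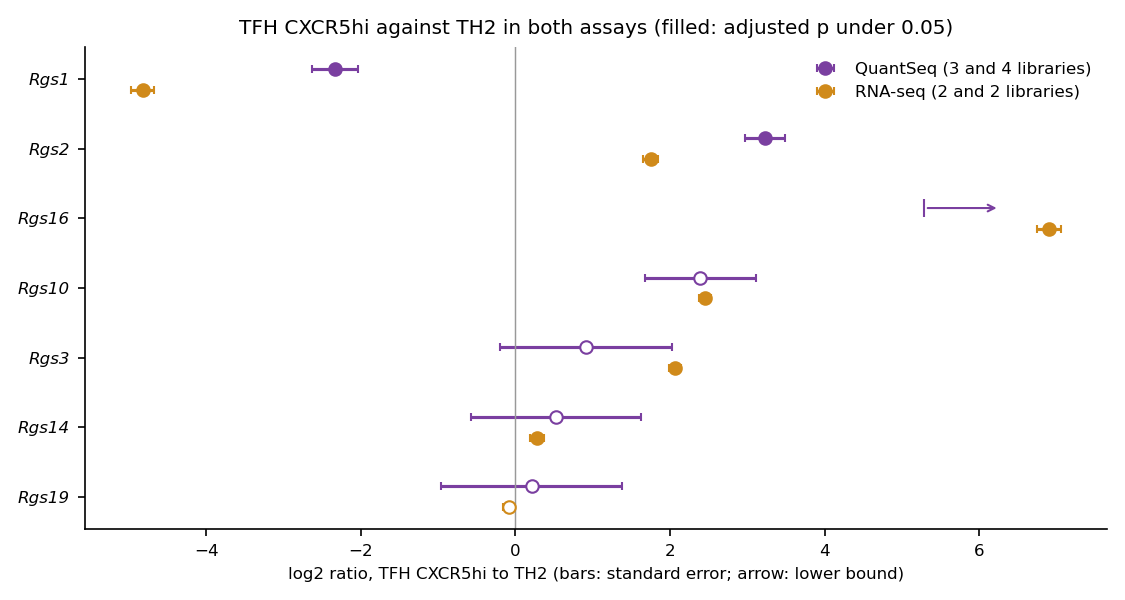
Log2 ratio of TFH CXCR5hi to TH2 cells for the regulators in QuantSeq and RNA-seq, with SE bars; filled points have an adjusted p under 0.05, and the arrow marks a lower bound for Rgs16 in QuantSeq, where TH2 libraries held no count. Rgs1 lies below 0 in both assays (-2.33 and -4.82) and Rgs2 above it in both (3.23 and 1.75).

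Transcript counts in RNA-seq allowed the same genes to be read by gene model, as a description with no test. The sources do not state how reads on shared exons were counted. Rgs19-206 and Rgs19-212 held the same count in every library, 12143 in total each. Rgs1-206 and Rgs1-204 held 87824 and 87788 counts in total. Models of a gene may therefore rest largely on the same reads, and their number is not separate agreement on a direction. All 6 Rgs1 models were lower in TFH than in TH2, and all 4 Rgs2 models (3.45 to 4.26-fold) and all 6 Rgs10 models (5.4 to 6.46-fold) were higher. The 6 Rgs1 models are annotated as nonsense-mediated decay or retained intron, and none as protein coding. For Rgs19, 6 models were higher and 6 lower, at ratios of 0.884 to 1.06. Rgs3 also had models in both directions, with larger ratios: 14 of 17 were higher in TFH than in TH2, by up to 5.5-fold, and 3 were lower. The most abundant model (chr4:62619520-62703018) averaged 68.9 CPM in naive, 55.8 CPM in TH2 and 238 CPM in TFH cells.

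The 3 models with the opposite order lie in the 5′ part of the gene, and none of them is annotated as protein coding. Rgs3-213 (chr4:62623531-62631320) was at 1.16 and 0.814 CPM in naive, 7.64 and 11.2 CPM in TH2 and 1.31 and 1.67 CPM in TFH libraries. Rgs3-217 (chr4:62623709-62626531) was at 0.661 and 0.533 CPM in naive, 5.23 and 8.06 CPM in TH2 and 0.8 and 0.678 CPM in TFH libraries. Rgs3-215 (chr4:62604459-62623916) was at 0.378 and 0.365 CPM in naive, 3.13 and 5.73 CPM in TH2 and 0.364 and 0.209 CPM in TFH libraries. In each of the 3, both TH2 libraries stood above all naive and TFH libraries. TH2 means were 9.51, 11.1 and 11.9 times the naive means and 6.32, 8.99 and 15.5 times the TFH means. All 3 models end at or before 62631320, whereas the other 14 end at 62657439 or beyond. The 3 were singled out after their values were seen. Rgs3 also overlaps the antisense gene Gm11209 over 6036 bp, and the sources do not state whether counting used strand.

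**Figure D5:**
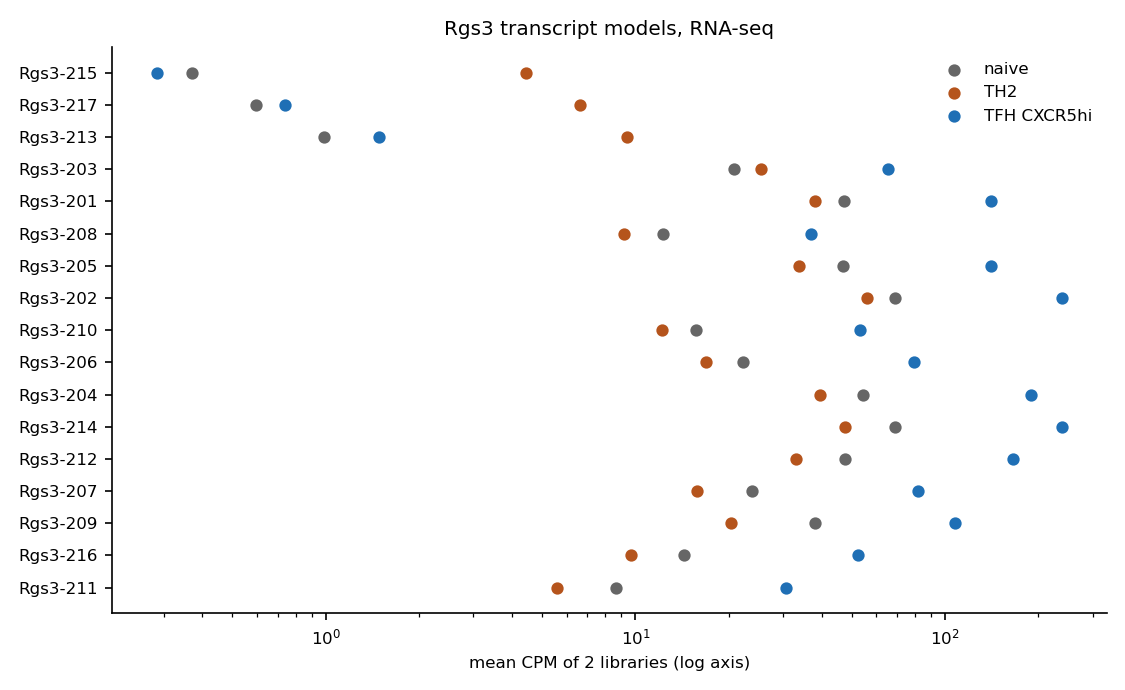
Mean level of the 17 Rgs3 transcript models in naive, TH2 and TFH CXCR5hi RNA-seq libraries (n = 2 each), in CPM on a log axis. In 14 models the TFH mean is the higher of TFH and TH2, and in Rgs3-213, Rgs3-217 and Rgs3-215 the TH2 mean is, at 9.41, 6.64 and 4.43 CPM.

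The remaining parts of the pathway were read from lists of genes chosen by function. Of 13 other Rgs genes, 3 were tested in QuantSeq. Between TFH CXCR5hi and TH2 0 were called by edgeR, against 2.05% of all genes higher and 1.46% lower. DESeq2 called 0, and 0 had an unadjusted p under 0.05. In RNA-seq 6 were tested, and between TFH and TH2 1 was higher and 3 were lower, against 30.8% and 30.9% of all genes. Rgs12, a large relative of Rgs14, averaged 27 CPM in TH2, 4.23 CPM in TFH and 3.42 CPM in naive cells, so that it shared the order of Rgs1 (log2 ratio of TFH to TH2 -2.72 ± 0.14). Rgs11 was lower in TFH (2.83 CPM) and TH2 (8.31 CPM) than in naive cells (33.1 CPM). The last 2 were low throughout, Rgs8 at 1.73 CPM in TFH and 0.0401 CPM in TH2, and Rgs9 at 0.115 CPM in TFH and 3.33 CPM in TH2.

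Among 11 G protein alpha subunits tested in RNA-seq, the proteins on which RGS domains act, 4 were higher and 3 lower in TFH than in TH2, close to the 30.8% and 30.9% of all genes. Gna15, of the Gq class, averaged 83.7 CPM in TH2, 13.7 CPM in TFH and 0.815 CPM in naive cells. Gna13, which couples sphingosine 1-phosphate receptors to the cytoskeleton, averaged 534 CPM in TFH, 229 CPM in TH2 and 169 CPM in naive cells. In QuantSeq, 0 of 10 alpha subunits were called between TFH CXCR5hi and TH2 by edgeR, against 2.05% of all genes higher and 1.46% lower. Of the 10, 4 had an unadjusted p under 0.05 and DESeq2 called 2. Gna13 was nonetheless higher in TFH CXCR5lo than in TH2 (log2 ratio 1.14 ± 0.33) and in TFH2 CXCR5hi (1.23 ± 0.36), neither of which DESeq2 called. Of 9 beta and gamma subunits tested in RNA-seq, 7 rose from naive to TH2 and none fell, against 33.9% and 31.9% of all genes, and DESeq2 called 5. Gng2 averaged 16.3 CPM in naive, 116 CPM in TH2 and 124 CPM in TFH cells.

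Upstream of the RGS proteins, 24 lymphocyte receptors were listed and 22 were tested in QuantSeq, of which 4 were higher and 5 lower in TFH CXCR5hi than in TH2, against 2.05% and 1.46% of all genes. S1pr1, the receptor that guides exit from lymphoid organs, averaged 20 ± 6.73 CPM in TFH CXCR5hi and 237 ± 45.1 CPM in TH2 (log2 ratio -3.57 ± 0.45). Gpr183, a receptor for oxysterols, averaged 393 and 70.3 CPM (2.47 ± 0.35), and Adora2a, an adenosine receptor that raises cAMP, 213 and 29.6 CPM (2.85 ± 0.43). Cxcr5, on which the gates were set, had no count in TH2 libraries. In RNA-seq, 11 of 24 receptors were higher and 10 lower in TFH than in TH2, against 30.8% and 30.9% of all genes. Ccr8, Cxcr6 and Ccr2 were lower, with log2 ratios of -6.66 ± 0.12, -6.23 ± 0.13 and -10.51 ± 0.24. Of 12 genes of receptor desensitisation and G alpha handling, 0 were called in the QuantSeq comparison of TFH CXCR5hi with TH2 by edgeR. The share over all genes was 2.05% higher and 1.46% lower. Of the 12, 2 had an unadjusted p under 0.05 there and DESeq2 called 0. In RNA-seq 6 were higher and 3 lower between TFH and TH2, against 30.8% and 30.9% of all genes. DESeq2 called 7 of them. Of 16 tested genes of cAMP signalling and beta-gamma effectors, Prkar1a, a regulatory subunit of protein kinase A, was higher in TFH CXCR5hi (632 ± 121 against 265 ± 68.6 CPM), and Pik3r5, a subunit of a kinase driven by beta-gamma, had 1 count there against 832 in TH2.

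The genes whose levels ran most like each regulator over the 22 QuantSeq libraries were taken from 5884 genes by Pearson's r of log2(CPM + 1). These r values are descriptions, since libraries of a group share their condition. For Rgs2 they were Cd160 (r = 0.96), Dtx1 (0.95) and Nav2 (0.95), and for Rgs1 Id2 (0.88), Ccr2 (0.87) and Itgb3 (0.86). For Rgs10 they were Sypl (0.86), Ptprc (0.85) and Ubl5 (0.85), and for Rgs16 Usp6nl (0.86), Fyn (0.83) and Coro2b (0.81). The closest genes were Spty2d1 for Rgs3 (0.81), Tgfbrap1 for Rgs19 (0.79) and Gm4294 for Rgs14 (0.7).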

How the data were processed

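The authors deposited whole-number counts, per gene for QuantSeq and per transcript for RNA-seq. Per the submitters' processing notes, featureCounts 1.6.0, STAR 2.7.0c and Bowtie 0.12.2 were used. Which tool made which table is not given in the sources used. Names came from GENCODE M21; unnamed identifiers held 0.0062% of QuantSeq and 14.66% of RNA-seq counts and were left out. Each RNA-seq gene is its transcript with the highest total count. Counts of each assay were tested over all its genes with edgeR 4.0.16 in R 4.3.3 (TMM factors, filterByExpr at a minimum count of 10 and a minimum total of 15, robust quasi-likelihood fit, 2-sided, Benjamini-Hochberg adjustment, call at adjusted p under 0.05), in 13 comparisons, and the code was tested on simulated data. Log2 ratios carry the standard error implied by the test. Alternatives were DESeq2 1.42.0, RLE factors, no filter, only the compared groups, sums over transcripts, each library left out and, in RNA-seq, the 2 single libraries left out. The named genes are all 8 regulators, at most 4 called genes of a list with the smallest p, and 3 genes per regulator by likeness. The regulators, the pathway lists and the markers were chosen with earlier results of these data known. Replicate pairs differed beyond sampling noise, with a chi-square per degree of freedom of 35.1 to 56.0 in QuantSeq and 2.65 to 21.4 in RNA-seq.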

Additional observations from a re-analysis of the deposited data

Results flagged for a closer look

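In the single RNA-seq library labelled TH2 (IL-4BacTg x OTII Tg), Rgs1 stood at 429 CPM, Rgs2 at 389.7 CPM, Rgs3 at 137 CPM, Rgs10 at 258 CPM and Rgs16 at 52.5 CPM. Rgs1 lay below both TH2 libraries, at 1475 and 1947 CPM, and the other 4 genes lay above both, with Rgs16 at 0.481 and 0.581 CPM there. Cxcr5, at 135 CPM, was not at the TH2 level of 0 CPM either. Rgs2 in this library also lay above the 346 and 335 CPM of the TFH libraries. In the single library labelled TFH2 CXCR5hi, Rgs1 stood at 134 CPM and Rgs16 at 3.58 CPM, beside Cxcr5 at 1.11 CPM. Both lie outside the TFH levels of 61.6 and 63.3 CPM for Rgs1 and 63.9 and 66.6 CPM for Rgs16. So did Rgs2 (24.9 against 346 and 335 CPM), Rgs3 (35 against 239 and 237 CPM) and Rgs10 (81.5 against 297 and 299.9 CPM). These values stand on neither side of any comparison, and whether the labels of the 2 libraries are right was not tested.

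Rgs3-213, Rgs3-217 and Rgs3-215 averaged 9.41, 6.64 and 4.43 CPM in TH2 cells in RNA-seq, above naive and TFH cells, although the gene's most abundant model ran the other way. These models were not part of the gene tests. Rgs14 had a TH2 library at 18.4 CPM in QuantSeq, far from the others at 25 to 25.9 CPM relative to the group's range, by Dixon's test. Chance gives such a result in about 1 of 20 groups.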

How the results depend on the processing

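Of 29 called ratios of single regulators, 25 kept their direction and their call under each alternative run (10 to 18 per ratio). Among them were Rgs2 and Rgs1 between TFH and TH2 in both assays. With DESeq2, 4 regulators were called for TFH CXCR5lo and 4 for TFH2 CXCR5hi against TH2, where edgeR called 2 each; with only the compared groups fitted, 1 was called for TFH2 CXCR5hi, Rgs16 being lost (adjusted p = 0.0902). Leaving out 1 library in turn gave 2 to 3 calls for TFH CXCR5lo, 2 to 3 for TFH2 CXCR5hi and 1 to 3 for TFH2 CXCR5lo against TH2, 1 to 2 for TFH2 against TFH, 0 to 2 for the TFH2 gates and 0 to 1 for the difference between gate contrasts. In RNA-seq it gave 6 to 7 for TH2 against naive and 5 to 7 for TFH against TH2. Reversals were Rgs10 in TFH2 CXCR5lo against TH2 without TFH2 CXCR5lo replicate 1 (log2 ratio -2.13, called; 1.5 without replicate 2, called) and Rgs19 in RNA-seq TFH against TH2 without TH2 replicate 2 (0.03; -0.18 without replicate 1, called). Without that TFH2 CXCR5lo replicate, Rgs10 was also called between TFH2 and TFH (-1.29) and between gate contrasts (4.96), and Rgs19 in TFH2 CXCR5lo against TH2 and CXCR5hi. The count for TFH CXCR5lo rose to 3 without TFH CXCR5lo replicate 2 or 3, through Rgs16, and that for TFH2 CXCR5hi without TH2 replicate 4, through Rgs10. Calls of Rgs2 and Rgs3 in TH2 against naive were lost without naive replicate 2 (adjusted p = 0.0919) and 1 (adjusted p = 0.0853). Over all genes, DESeq2 called 978 against edgeR's 505 for TFH CXCR5hi, 682 against 320 for TFH CXCR5lo, 816 against 423 for TFH2 CXCR5hi, 622 against 252 for TFH2 CXCR5lo (each against TH2), 268 against 93 for TFH2 against TFH, 92 against 20 and 130 against 22 for the TFH and TFH2 gates, 39 against 2 for their difference, 144 against 3 for Bcl6KO and 92 against 10 for Il4KO. Without the filter, 142 genes were called for TFH2 against TFH, 33 and 36 for the TFH and TFH2 gates, 4 for their difference, 17 for Bcl6KO and 38 for Il4KO; on the compared groups alone, 160 for TFH2 CXCR5lo against TH2, 7 and 0 for the gates, 1 for Bcl6KO and 0 for Il4KO. RLE factors moved the share of TFH2 against TFH calls that were higher from 50.5 to 62.2%. The cause of these changes was not tested. The fit on the compared groups alone gives no value for the difference between gate contrasts. No paired analysis was possible because the labels carry no replicate numbers or animals. QuantSeq depth sets the level of 3 counts at 0.675 to 1.64 CPM, and counts of 0 do not show absence.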
